A study of Mus musculus with 12 samples.

Results

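The 10 genes described here encode the organic anion and urate transporters of the mouse kidney that the listed symbols name: Slc22a6, Slc22a7, Slc22a8, Slc22a12, Slc22a13, Slc22a19, Slc22a30, Slco1a1, Slco4c1 and Slc17a1. They were found by their NCBI Gene numbers, and all 10 of 10 were among the 27179 genes of the expression table and among the 14972 genes that passed a filter on low values. RNA sequencing was run on flash-frozen whole kidneys of 12 mice, in 4 groups of 3. Wild-type mice ("Wildtype" in the labels) and mice labelled "{Gamma}GT1-Cre;Fan1-/-", called FAN1KO here, received either saline or cisplatin, a platinum drug that crosslinks DNA and injures kidney tubules. Cisplatin was injected into the abdomen at 2 mg/kg once a week for 5 weeks in mice aged 8 to 12 weeks, all labelled as of mixed strain background. FAN1 is a nuclease that repairs DNA crosslinks, and the Ggt1 promoter that drives the Cre recombinase is active in the proximal tubule, so other cells of the kidney should keep the gene. Fan1 RNA lay between 1.17 and 2.28 TPM (transcript abundance per length and library total) in the FAN1KO saline libraries and between 1.98 and 3.80 TPM in the wild-type saline ones, ranges that overlap, so this whole-kidney level did not check the genotype labels. The labels used here give no sex for the animals.

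Organic anion transporters carry negatively charged drugs, toxins and metabolites across the proximal tubule cell, from blood to urine or back. The basolateral carriers Slc22a6 and Slc22a8 face the blood and exchange their substrates for dicarboxylates. The carriers of the luminal membrane include Slc22a12, which reabsorbs urate, and Slc17a1, which lets anions and urate out into the urine. Levels of several of these transporters in mouse kidney are known to be set in part by sex hormones.

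The TPM of each library summed to 1000000, and TPM are scaled to transcript length, so that levels can be compared between genes. The recovered depth was 37200273 to 82944879 reads a library. One library in each group held RNA of the genes Uty, Kdm5d, Ddx3y and Eif2s3y of the Y chromosome: among the saline kidneys wild-type 3 and FAN1KO 1, and among the cisplatin kidneys wild-type 1 and FAN1KO 3. Their summed level reached 65.1 to 92.2 TPM in those 4 libraries. The split was read from the data and stands in no label. It is used below only as a covariate, to leave out libraries in 1 alternative fit, and as a description. For 41.5% of all genes tested the library with Y-linked RNA was the lowest of its group in all 4 groups, and for 4.4% it was the highest in all 4. The hepatocyte transporter gene Slco1b2 stayed at or below 0.0485 TPM, and 3 hepatocyte markers together at 4.68 to 32.8 TPM.

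Slc22a12 was the most abundant of the 10 by mean TPM, ranking 98 among the genes tested, followed by Slc22a8 at rank 394 and Slc22a6 at rank 395. Slco4c1 was the least abundant, at rank 13551. The 10 transporters together summed to 2017 to 4212 TPM in the 9 libraries that were not FAN1KO cisplatin libraries. In the FAN1KO cisplatin libraries the sums were 754.5, 988 and 1856 TPM. These 3 sums were below every other library, and in each group the largest belonged to the library with Y-linked RNA. Slc22a12 alone made up between 26% and 50.8% of the sum.

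**Figure D1:**
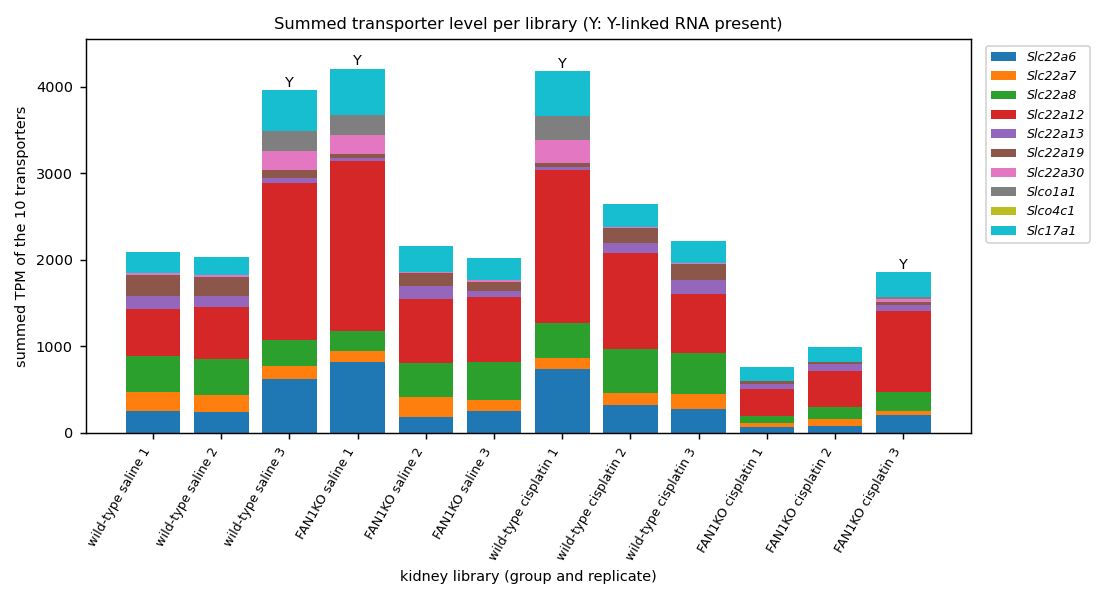
Stacked bars of the TPM of the 10 transporters in each of the 12 kidney libraries, by group and replicate, with "Y" over the libraries that held Y-linked RNA. The bars of the 3 FAN1KO cisplatin libraries reach 754.5, 988 and 1856 TPM, and the other 9 lie between 2017 and 4212 TPM.

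The first comparison, FAN1KO against wild-type kidneys under cisplatin, asks which transporters differed when both genotypes had received the drug. Slc22a6, Slc22a7, Slc22a8 and Slc22a19 fell in FAN1KO kidneys, and none of the 10 rose, by limma with an adjusted p under 0.05. In this comparison 4.37% of all genes tested were called lower and 19.6% higher, 654 against 2931 genes. With each library rescaled to its median ratio these became 1155 against 1389 genes (7.71% and 9.28%), while 3 of the 10 transporters were called lower (Slc22a6 was at adjusted p = 0.0674). All 10 log2 fold changes were below 0, also with median-ratio scaling, but 9 of 10 by voom on the recovered reads and 7 of 10 with libraries centred on proximal tubule markers, and Slco4c1 turned with a smaller pseudocount. Their median was -1.31, against 0.245 over all genes tested. In 4 of the 10 every FAN1KO library was below every wild-type library, which held for 8.6% of all genes tested. In whole kidney, fewer proximal tubule cells and less RNA per cell cannot be told apart.

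Among the basolateral carriers, Slc22a6 (Oat1, NCBI Gene 18399, chr19:8617996-8628299 in build GRCm38.p6, as all positions here) takes up anions from the blood in exchange for dicarboxylate. Its level was 246, 237 and 619 TPM in the wild-type saline libraries and 812, 175 and 249 TPM in the FAN1KO saline libraries. Under cisplatin it was 738, 320 and 278 TPM in wild-type and 59.3, 77.3 and 198 TPM in FAN1KO. The single high library of each group was the one with Y-linked RNA, and the FAN1KO cisplatin libraries were lower than all the wild-type ones. Between genotypes under cisplatin its log2 fold change was -2.04 ± 0.652 (SE, limma, adjusted p = 0.0446).

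Slc22a8 (Oat3, NCBI Gene 19879, chr19:8591254-8611835), its neighbour on the chromosome, is the other basolateral exchanger of the kidney. It measured 424, 426 and 306 TPM in wild-type saline kidneys and 226, 392 and 447 TPM in FAN1KO saline kidneys. In the cisplatin groups it measured 407, 511 and 474 TPM in wild-type and 87.6, 133 and 216 TPM in FAN1KO. Every FAN1KO cisplatin library lay under every other library of the study. Between genotypes under cisplatin the log2 fold change was -1.76 ± 0.323 (SE, limma, adjusted p = 0.00459), from a mean of 464 ± 52.7 to 146 ± 64.9 TPM (SD, n = 3).

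Slc22a7 (Oat2, NCBI Gene 108114, chr17:46432185-46438477) carries small anions and cyclic nucleotides. Saline kidneys held 218, 194 and 150 TPM in wild-type and 132, 239 and 123 TPM in FAN1KO. Cisplatin kidneys held 126, 140 and 170 TPM in wild-type and 47.5, 85.3 and 50.4 TPM in FAN1KO. The FAN1KO cisplatin libraries were again the 3 lowest of the 12. Against wild-type its log2 fold change was -1.28 ± 0.284 (SE, limma, adjusted p = 0.0107).

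Of the luminal carriers in the SLC22 family, Slc22a19 (Oat5, NCBI Gene 207151, chr19:7673075-7711310) transports steroid sulfates and other anions. Its levels were 251, 216 and 93.6 TPM in wild-type saline libraries and 37.6, 154 and 99.5 TPM in FAN1KO saline libraries. They were 41.6, 170 and 183 TPM in wild-type cisplatin libraries and 31.4, 22.9 and 32.0 TPM in FAN1KO cisplatin libraries. The low library of each of the first 3 groups was the one with Y-linked RNA, and in the FAN1KO cisplatin group all 3 were low, with no such split. Slc22a19 differed between genotypes under cisplatin by a log2 fold change of -1.90 ± 0.628 (SE, limma, adjusted p = 0.04997), at the edge of the threshold.

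Slc22a12 (Urat1, NCBI Gene 20521, chr19:6535854-6543070) is the luminal urate reabsorber. It stood at 543, 596 and 1810.3 TPM in wild-type saline kidneys and at 1977, 737.5 and 751 TPM in FAN1KO saline kidneys. Under cisplatin it stood at 1767, 1102 and 684.5 TPM in wild-type and at 310.0, 418 and 943 TPM in FAN1KO. The FAN1KO library with Y-linked RNA overlapped the wild-type range, and the other two did not. Its log2 fold change of -1.15 ± 0.593 (SE) did not pass the test (limma, adjusted p = 0.181, 95% confidence interval -2.46 to 0.16).

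Slc17a1 (Npt1, NCBI Gene 20504, chr13:23867624-23895730) releases urate and other anions at the luminal membrane. Saline libraries held 240, 214.5 and 476 TPM in wild-type and 538, 291 and 249 TPM in FAN1KO. Cisplatin libraries held 516, 263 and 246 TPM in wild-type and 154, 171 and 286 TPM in FAN1KO. As for Slc22a12, the FAN1KO library with Y-linked RNA was the one inside the wild-type range. The log2 fold change was -0.72 ± 0.410 (SE, limma, adjusted p = 0.226).

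Slc22a13 (Oat10, NCBI Gene 102570, chr9:119192966-119209105), a luminal carrier of nicotinate and urate, did not separate the genotypes. Its TPM were 146, 134 and 60.2 in wild-type saline, 34.2, 152 and 70.4 in FAN1KO saline, 35.6, 124 and 161 in wild-type cisplatin and 60.7, 74.8 and 67.4 in FAN1KO cisplatin. The FAN1KO cisplatin values were close together, with an SD of 7.06 TPM against 46.3 to 64.4 TPM in the other groups. Its log2 fold change under cisplatin was -0.40 ± 0.611 (SE, limma, adjusted p = 0.661).

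Slc22a30 (NCBI Gene 319800, chr19:8335371-8405111) is a member of a rodent SLC22 cluster on chromosome 19. It measured 19.0, 16.6 and 218 TPM in wild-type saline, 222, 10.4 and 27.3 TPM in FAN1KO saline, 265, 9.60 and 12.1 TPM in wild-type cisplatin and 2.61, 4.33 and 45.0 TPM in FAN1KO cisplatin. One library a group, the one with Y-linked RNA, carried most of its signal. The log2 fold change under cisplatin was -1.79 with an SE of 1.576 (limma, adjusted p = 0.433). Its coding sequence is 98.8% identical to that of Slc22a28 and 92.4% to that of Slc22a29, so reads may be split between these copies, and its level is uncertain for that reason. Slc22a19 is at most 75.9% identical to any of this cluster.

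Among the organic anion transporting polypeptides, Slco1a1 (Oatp1a1, NCBI Gene 28248, chr6:141907281-141946962) carries bile salts and steroid conjugates. In the 4 libraries with Y-linked RNA it measured 232 TPM (wild-type) and 233 TPM (FAN1KO) under saline, and 285 TPM (wild-type) and 16.6 TPM (FAN1KO) under cisplatin. In the other 8 libraries it measured 0.171 to 0.277 TPM, from 16 to 31 reads. No library lay between these 2 levels. With so wide a split inside each group, the log2 fold change between genotypes under cisplatin had an SE of 2.832 (-1.34, limma, adjusted p = 0.757).

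Slco4c1 (NCBI Gene 227394, chr1:96816270-96872193), a basolateral carrier of cardiac glycosides and thyroid hormone, was close to the filter on low values, a TPM of 1. It measured 1.85, 2.35 and 0.584 TPM in wild-type saline, 1.00, 2.97 and 1.14 TPM in FAN1KO saline, 0.173, 1.85 and 2.18 TPM in wild-type cisplatin and 1.20, 0.856 and 1.34 TPM in FAN1KO cisplatin. These values rested on 14 to 170 reads a library. The log2 fold change of -0.05 ± 0.419 (SE, limma, adjusted p = 0.939) is on the log2(TPM + 1) scale, which understates changes of so low a gene.

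**Figure D2:**
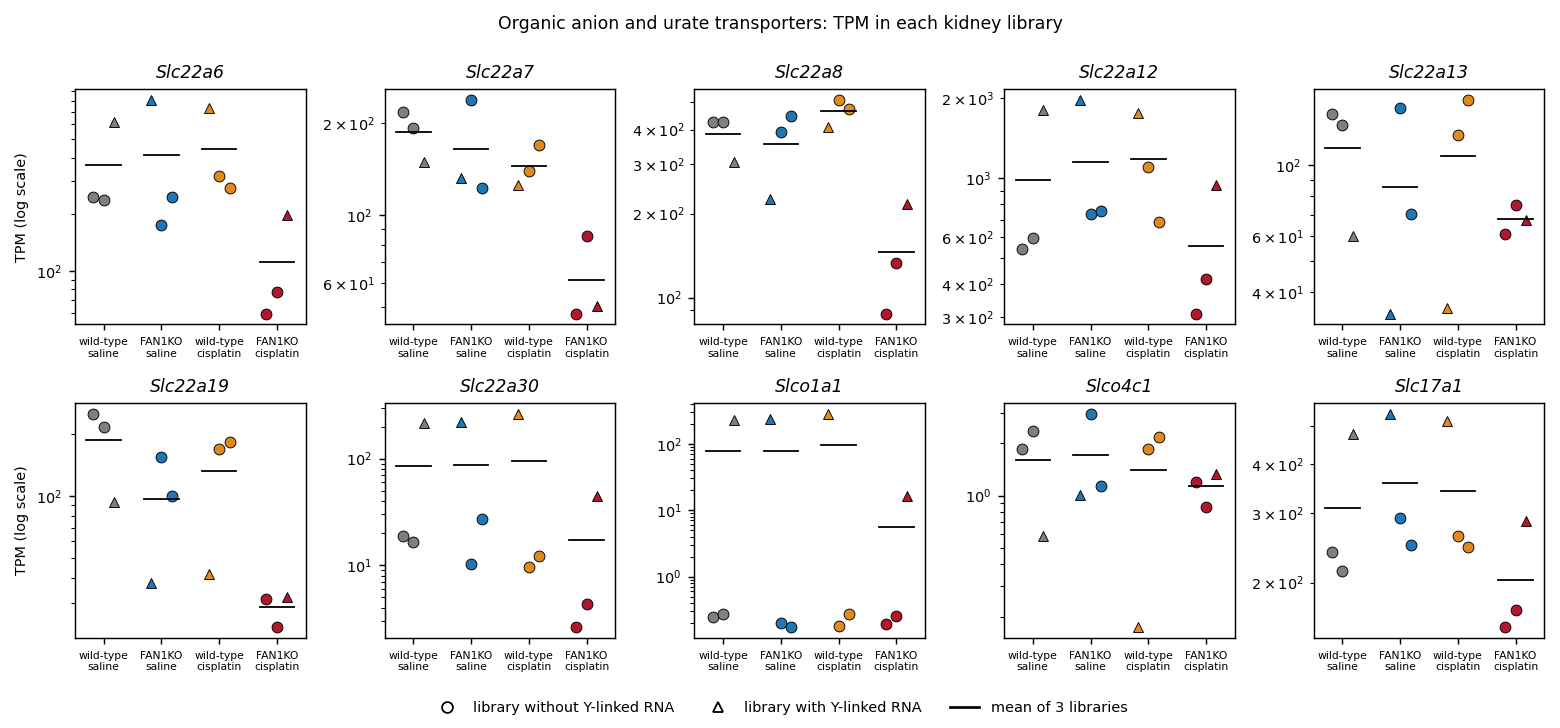
TPM of each transporter on a log axis, 1 panel a gene, with circles for libraries without Y-linked RNA, triangles for libraries with it and a line at the mean of the 3 libraries of a group. Slc22a6, Slc22a7, Slc22a8 and Slc22a19 show no overlap between the 2 cisplatin groups, and the triangles of Slco1a1 stand at 16.6 to 285 TPM over circles of 0.171 to 0.277 TPM.

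The calls differed in how far they rested on single libraries. Slc22a8 was called in every one of the 12 fits that left out 1 library, and Slc22a7 in all but the fit without FAN1KO cisplatin 1 (limma, adjusted p = 0.0528). Slc22a6 lost its call in 8 of the 12 fits (without wild-type saline 1 or 2, FAN1KO saline 3, any wild-type cisplatin library, or FAN1KO cisplatin 1 or 2), with adjusted p between 0.0551 and 0.168. Slc22a19 also lost it in 8 (without wild-type saline 1 or 2, FAN1KO saline 3, wild-type cisplatin 2 or 3, or any FAN1KO cisplatin library), with adjusted p between 0.0609 and 0.143. An exact two-sided permutation test over the 6 libraries gave each of these 4 genes p = 0.1, the smallest that 3 against 3 can give.

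Markers of the proximal tubule fell with the transporters. Of 8 such genes, 6 were called lower in FAN1KO kidneys under cisplatin and none higher, with a median log2 fold change of -0.90. Ggt1, whose promoter drives the Cre, was at -0.91 (limma, adjusted p = 0.123). The 8 genes summed to 3698 to 7234 TPM in FAN1KO cisplatin libraries and 10064 to 14066 TPM in all others, while the summed injured tubule markers Havcr1, Lcn2 and Krt20 were 711.5 to 1071 TPM against 1.67 to 110 TPM, all 3 of them called higher. Summed leukocyte markers (1 of 3 called higher) were at 18.7 to 54.3 TPM in FAN1KO cisplatin libraries against 3.55 to 16.9 TPM elsewhere. Summed collecting duct markers (1 of 2 called higher) were at 747 to 1307 TPM against 151 to 555 TPM. That sum was mostly Aqp2 (log2 fold change 1.39, limma, adjusted p = 0.0455). The other marker, Slc4a1, at 9.13 to 25.0 TPM over all libraries, was at -0.19 (adjusted p = 0.740). The part of these other cell types in the transporter levels was not tested. Centring each library on the 8 proximal tubule markers raised the median of all genes from 0.245 to 1.21, with 0.427% of all genes called lower and 83.1% higher. On that scale Slc22a8 was still lower (log2 fold change -0.79 ± 0.255 SE, limma, adjusted p = 0.00981). On the same scale Slc22a6 was at -1.08 (adjusted p = 0.0657), Slc22a19 at -0.94 (adjusted p = 0.117) and Slc22a7 at -0.31 (adjusted p = 0.377), none of them called.

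The second comparison set cisplatin against saline in FAN1KO kidneys, and it shares the FAN1KO cisplatin libraries with the first. Slc22a7 fell (log2 fold change -1.40 ± 0.284 SE, limma, adjusted p = 0.00381) and Slc22a8 fell (-1.32 ± 0.323 SE, limma, adjusted p = 0.00941), from means of 165 to 61.1 TPM and of 355 to 146 TPM. None of the 10 rose. Over all genes tested 4.9% were called lower and 34.9% higher, 733 against 5229 genes, or 2047 against 2333 (13.7% and 15.6%) with median-ratio scaling. All 10 log2 fold changes were below 0, also with median-ratio scaling, but 9 of 10 in the libraries without Y-linked RNA and 6 of 10 with libraries centred on proximal tubule markers. Their median was -1.26 against 0.369 over all genes. Slc22a7, Slc22a8 and Slc22a19 were lower in FAN1KO cisplatin libraries with no overlap, as were 7.43% of all genes.

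Slc22a6, at -1.75 ± 0.652, just missed the threshold in FAN1KO kidneys (limma, adjusted p = 0.0538), and Slc22a19 was at -1.52 ± 0.628 (limma, adjusted p = 0.0771). Slc22a6 passed without FAN1KO cisplatin 3, FAN1KO saline 2, wild-type saline 3 or wild-type cisplatin 1 (adjusted p 0.0249 to 0.0461), and Slc22a19 without FAN1KO saline 1 or wild-type cisplatin 1 (adjusted p 0.0301 to 0.0326). Of the 8 proximal tubule markers 7 were called lower here, and with libraries centred on them none of the 10 transporters was called, where 0.26% of all genes were called lower and 91.3% higher and the median of all genes was 1.55. Slc22a7 then stood at -0.22 (adjusted p = 0.516) and Slc22a8 at -0.14 (adjusted p = 0.594).

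Neither of the other comparisons gave a call among the 10. Between genotypes under saline, the log2 fold changes ran from -1.03 for Slc22a19 to 0.30 for Slc22a12, with a smallest adjusted p of 0.799 (limma), and 0.427% and 0.341% of all genes were called lower and higher. None of the 10 had an unadjusted p under 0.05, against 8.38% of all genes. The Y-linked covariate, with 1.66% and 1.16% of all genes called lower and higher, and the libraries without Y-linked RNA, with 1.19% and 0.781%, called none of the 10 either. The 95% confidence interval of Slc22a8 was -0.87 to 0.55 and that of Slc22a7 -0.86 to 0.40. For Slc22a6 the interval ran from -1.45 to 1.43. Its estimate under cisplatin, -2.04, lay outside that interval, but the 95% confidence interval of that estimate, -3.485 to -0.603, overlapped it.

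In wild-type kidneys cisplatin left the 10 transporters without a call, with log2 fold changes from -0.65 (Slc22a19) to 0.39 (Slc22a12) and a smallest adjusted p of 1 (limma). In this comparison 0% and 0.0601% of all genes were called lower and higher. Again none of the 10 had an unadjusted p under 0.05, against 3% of all genes. Slc22a8 was at 0.28 (95% confidence interval -0.43 to 0.99) and Slc22a6 at 0.29 (-1.16 to 1.73). Slc22a7 was at -0.36 (-0.98 to 0.27). With the covariate, 0.00668% and 0.381% of all genes were called lower and higher, and in the libraries without Y-linked RNA 0.02% and 0.401%, and none of the 10 was among them.

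**Figure D3:**
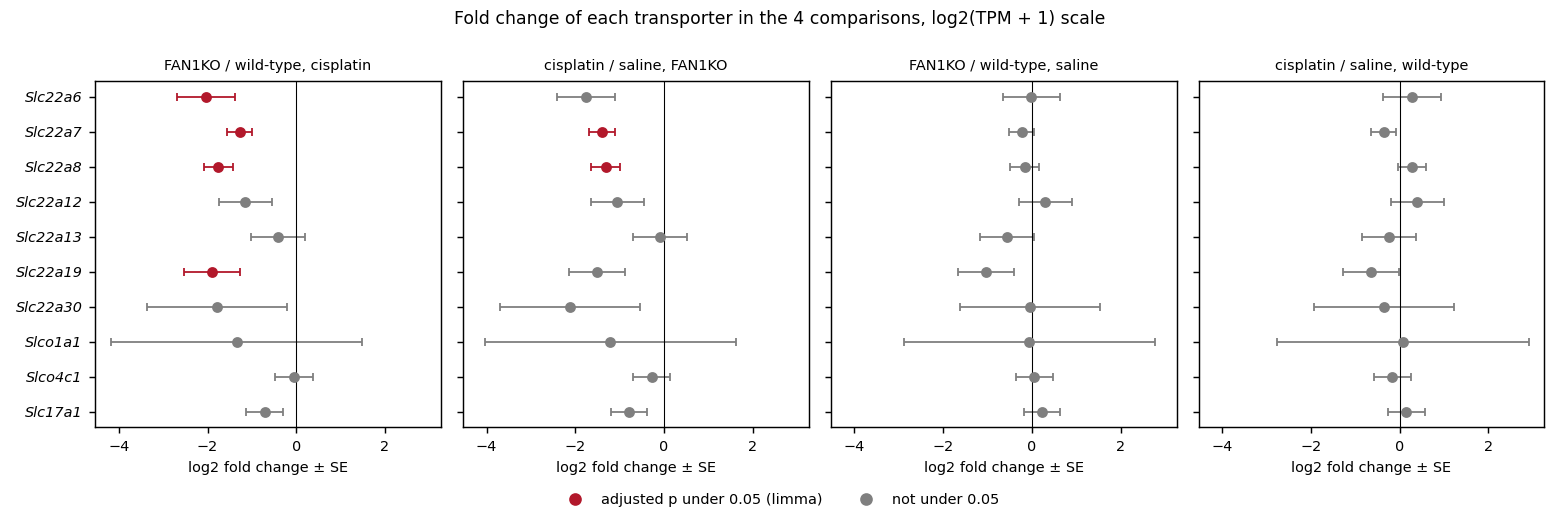
Log2 fold change of each transporter (horizontal axis, log2(TPM + 1) scale) with its SE in the 4 comparisons, red where limma's adjusted p was under 0.05. The 10 points lie left of 0 in both comparisons that involve FAN1KO kidneys under cisplatin, between -2.11 and -0.05, and on both sides of 0 in the other two.

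Whether cisplatin acted differently in the 2 genotypes was tested by the interaction, the cisplatin effect in FAN1KO minus that in wild-type. No transporter passed (limma, smallest adjusted p = 0.0631), where 1.02% and 5.22% of all genes were called lower and higher. At an unadjusted p under 0.05 were 2 of the 10, both lower, against 25.1% of all genes in either direction and 3.68% in the lower one. Slc22a8 had an interaction of -1.60 ± 0.456 (SE), and Slc22a7 one of -1.04 ± 0.401 (SE, limma, adjusted p = 0.138). Slc22a8 passed without FAN1KO saline 1 or FAN1KO cisplatin 3 (adjusted p 0.0238 to 0.0477).

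The libraries with Y-linked RNA split the 10 transporters into groups. Slc22a6, Slc22a12, Slc22a30, Slco1a1 and Slc17a1 were highest in that library in all 4 groups, 5 of 10 against 4.4% of all genes. None of the 10 was lowest there in all 4 groups, against 41.5% of all genes. Slc22a8, Slc22a13, Slc22a19 and Slco4c1 were lowest there in the 3 groups other than FAN1KO cisplatin and not in that group, 4 of 10 against 9.3% of all genes. The 41.5% were lowest in those 3 groups too, so being lowest there in the 3 groups was common among all genes. With 1 such library a group, the levels are given without a test.

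The size of the split differed widely among the first set, as the ratio of the library with Y-linked RNA to the mean of the other two of its group. Slco1a1 had ratios of 888 (wild-type) and 1251 (FAN1KO) under saline and of 1237 (wild-type) and 73.5 (FAN1KO) under cisplatin. Slc22a30 had ratios of 12.2, 11.8, 24.4 and 13.0 in the same order. Slc22a6 ran from 2.47 to 3.83, Slc22a12 from 1.98 to 3.18 and Slc17a1 from 1.76 to 2.10. These last 3 kept a similar ratio in the FAN1KO cisplatin group, at 2.90, 2.59 and 1.76.

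The carriers that were lowest in the library with Y-linked RNA in the first 3 groups were not lowest there in FAN1KO cisplatin kidneys. Slc22a19 had ratios of 0.401, 0.297 and 0.236 in the first 3 groups and 1.18 in FAN1KO cisplatin. For Slc22a13 they were 0.431, 0.308 and 0.250, then 0.994, and for Slc22a8 0.719, 0.538 and 0.826, then 1.95. Slc22a7 differed from all of these, with ratios of 0.728 to 0.810 in every group. In both FAN1KO groups, though, its library with Y-linked RNA lay between the others. It was at 132 TPM against 239 and 123 TPM under saline, and at 50.4 TPM against 47.5 and 85.3 TPM under cisplatin. Of 3 genes listed as androgen-raised in mouse kidney, the androgen-regulated protein gene Kap had ratios of 4.02, 5.69 and 5.78, then 22. The other genes of that list had smaller ratios in FAN1KO cisplatin than in the first 3 groups. Cyp4b1 had 7.79, 13.1 and 10.5, then 4.8, and Odc1 had 2.69, 4.32 and 3.96, then 1.18. Kap itself was at 724 and 555 TPM in the FAN1KO cisplatin libraries without Y-linked RNA and at 14075 TPM in the one with it, against 5969 to 80927 TPM elsewhere, and its part in the result was not tested.

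**Figure D4:**
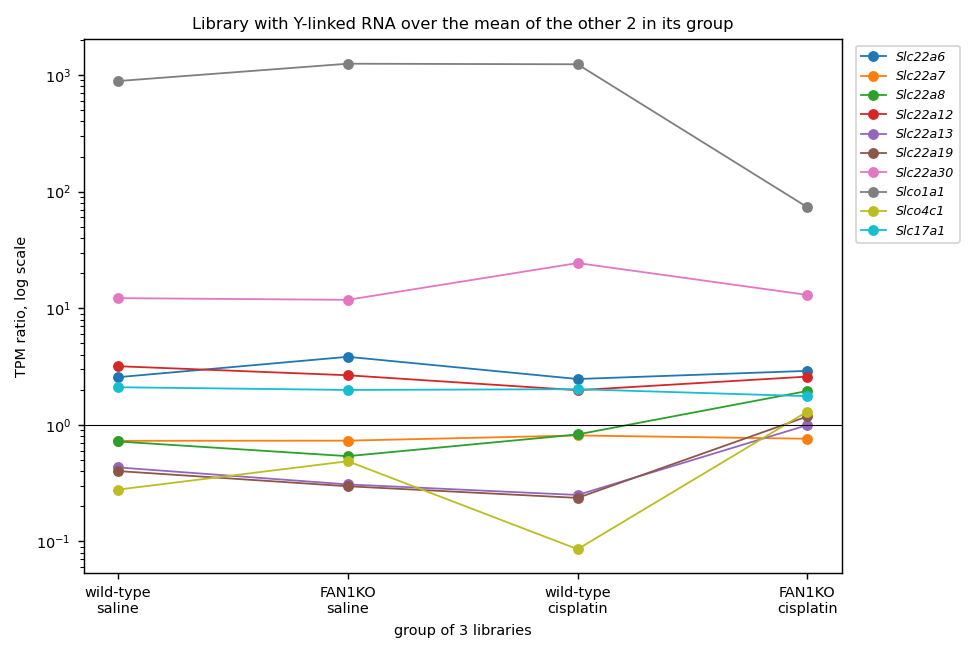
Ratio of TPM in the library with Y-linked RNA to the mean of the other 2 libraries of its group (log axis), with a line joining the 4 groups for each transporter and no test. Slco1a1 stands at 73.5 to 1251, and Slc22a8, Slc22a13, Slc22a19 and Slco4c1 lie under 1 in the first 3 groups and between 0.994 and 1.95 in FAN1KO cisplatin.

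With the Y-linked level as a covariate in the fit, 7 of the 10 transporters were called lower in FAN1KO kidneys under cisplatin and none higher, where 8.6% of all genes were called lower and 40.3% higher. The 3 added were Slc22a12 (log2 fold change -1.19 ± 0.198 SE, limma, adjusted p = 0.00095), Slc22a30 (-1.90 ± 0.332 SE, adjusted p = 0.00122) and Slc17a1 (-0.74 ± 0.101 SE, adjusted p = 0.000326). Without the covariate their errors were 0.593, 1.576 and 0.410. Slc22a6 was at -2.09 ± 0.167 (SE, adjusted p = 2.35e-05). The covariate assumes 1 shared Y-linked effect in the 4 groups. The ratios were not shared for Slc22a8 (0.538 to 0.826, but 1.95 in FAN1KO cisplatin) or Slc22a19 (0.236 to 0.401, but 1.18). In the 8 libraries without Y-linked RNA, 2 a group, 8 transporters were called lower, where 7.76% of all genes were lower and 28.9% higher, and the added one was Slc22a13 (-1.06 ± 0.323 SE, limma, adjusted p = 0.0392).

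The same covariate gave 7 lower transporters for cisplatin against saline in FAN1KO kidneys, where 8.16% of all genes were called lower and 52.9% higher, and the 8 libraries gave 7 (8.39% and 44.4%). For the interaction it gave 6 (Slc22a6, Slc22a7, Slc22a8, Slc22a12, Slc22a30 and Slc17a1), where 4.31% of all genes were called lower and 27.3% higher. In the 8 libraries the interaction gave 5, where 2.9% of all genes were called lower and 13.4% higher: Slc22a6, Slc22a8, Slc22a12, Slc22a19 and Slc17a1. The interaction of Slc22a6 was -2.04 ± 0.236 (SE, limma, adjusted p = 0.00068) with the covariate. Slco1a1 and Slco4c1 were called in none of these fits.

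**Figure D5:**
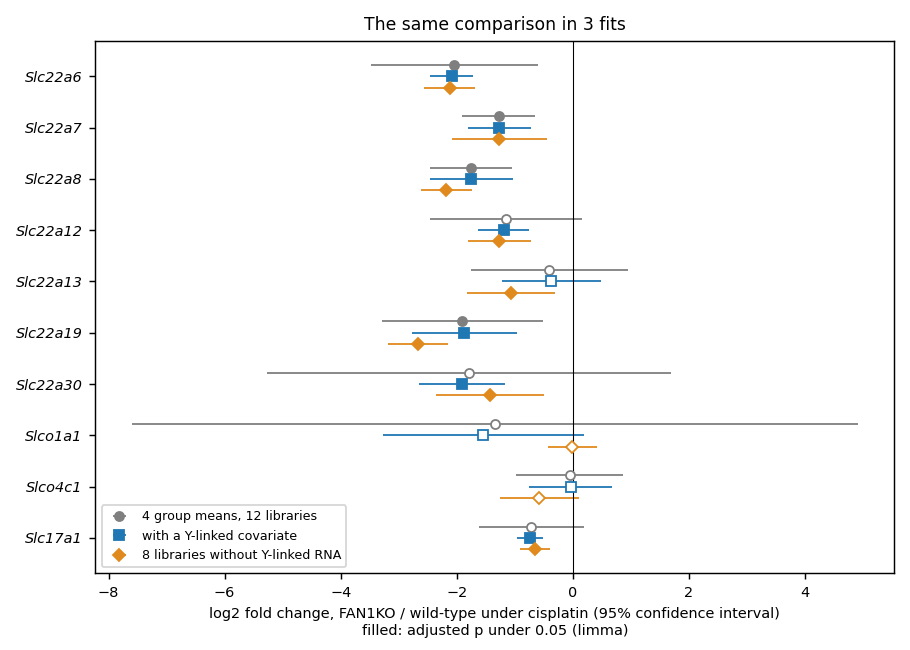
Log2 fold change between FAN1KO and wild-type kidneys under cisplatin with its 95% confidence interval in 3 fits: the 4 group means over 12 libraries, the same with the Y-linked covariate, and the 8 libraries without Y-linked RNA. Filled symbols, with limma's adjusted p under 0.05, number 4, 7 and 8 of the 10.

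The other genes of anion and urate handling were taken from a list of 47, of which 45 were tested. Under cisplatin 12 were lower and 4 higher in FAN1KO kidneys, against 4.37% and 19.6% of all genes. The counts were 12 and 1 with median-ratio scaling (7.71% and 9.28% of all genes), and 0 and 20 with libraries centred on proximal tubule markers (0.427% and 83.1%). The largest falls that passed were in Slc17a3, a luminal urate and anion exit carrier (log2 fold change -1.67 ± 0.518 SE, limma, adjusted p = 0.0401), in Slco1a6 (-1.35 ± 0.338 SE, adjusted p = 0.0177) and in Slc13a3, the basolateral dicarboxylate carrier that feeds the exchange of Slc22a6 and Slc22a8 (-1.16 ± 0.178 SE, adjusted p = 0.0021). Slc13a3 measured 495, 456 and 446 TPM in wild-type and 177, 182 and 280 TPM in FAN1KO cisplatin libraries, with no overlap. Leaving out 1 library, Slc13a3 kept its call (limma, adjusted p at most 0.0121). Slc17a3 and Slco1a6 did not keep theirs in every such fit (adjusted p up to 0.153 and 0.0812).

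The urate-forming enzyme gene Xdh rose (1.50 ± 0.481 SE, limma, adjusted p = 0.0458), as did the urate carrier gene Slc2a9 (0.98 ± 0.255 SE, adjusted p = 0.0204) and the efflux pump gene Abcc2 (0.85 ± 0.211 SE, adjusted p = 0.0171). Each lost its call in at least 1 fit that left out 1 library (limma, adjusted p up to 0.171, 0.0903 and 0.0785 in the same order). Abcc2 was also at 0.92 ± 0.211 (SE) between genotypes under saline, with no overlap but without a call (limma, adjusted p = 0.105), and its interaction was -0.07. Slc2a9 was at 7.78, 9.32 and 13.7 TPM in wild-type and 25.3, 22.7 and 15.5 TPM in FAN1KO cisplatin libraries. Abcg2, a urate exporter, had a log2 fold change of -0.41 (limma, adjusted p = 0.0917). With median-ratio scaling Slc2a9 was the 1 gene of the list still called higher (0.71 ± 0.168 SE, limma, adjusted p = 0.0175).

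In FAN1KO kidneys 11 of the 45 fell with cisplatin and 3 rose, against 4.9% and 34.9% of all genes. The counts were 17 and 1 with median-ratio scaling (13.7% and 15.6% of all genes) and 0 and 24 with centring (0.26% and 91.3%). Slc13a3 (-1.50 ± 0.178 SE, limma, adjusted p = 0.00029), Slc17a3 (-1.48 ± 0.518 SE, adjusted p = 0.0434) and Slco1a6 (-1.16 ± 0.338 SE, adjusted p = 0.0204) led the falls. Those that rose were the prostaglandin carrier gene Slco2a1 (1.56 ± 0.529 SE, adjusted p = 0.0378), Slc2a9 (1.02 ± 0.255 SE, adjusted p = 0.0102) and the sulfate carrier gene Slc13a1 (0.57 ± 0.145 SE, adjusted p = 0.0114). Leaving out 1 library, Slc13a3, Slc2a9 and Slc13a1 kept their calls (limma, adjusted p at most 0.00199, 0.0487 and 0.0407). Slc17a3, Slco1a6 and Slco2a1 did not in every such fit (adjusted p up to 0.164, 0.0884 and 0.142). None of the 45 was called between genotypes under saline or with cisplatin in wild-type, with smallest adjusted p of 0.105 and 1 (limma), and 4 and 2 of them had an unadjusted p under 0.05, where 8.38% and 3% of all genes did. With each library rescaled to its median ratio, 2 of them and 80 of all genes were called higher between genotypes under saline.

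The genes whose pattern over the 12 libraries was nearest to that of a transporter were found by the root-mean-square distance of centred log2(TPM + 1). For Slc22a12, the most abundant, they were Nat8 (0.276), the organic cation carrier gene Slc22a2 (0.304) and Sucnr1 (0.321). For Slc22a6, with the largest log2 fold change between genotypes under cisplatin on the log2(TPM + 1) scale, they were Slc17a3 (0.252), Acy3 (0.315) and Cyp2a4 (0.329). All 6 were higher in the library with Y-linked RNA than in the others of its group. Slc22a12 and Slc22a6 were too, so the choice by nearest pattern favoured such genes. Slc17a3 for example measured 297, 341, 350 and 103 TPM in those 4 libraries and 42.1 to 163 TPM in the other 8.

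Slc22a6, Slc22a8, Slc22a12, Slc22a19 and Slc22a30 lie on chromosome 19. The 250 bases upstream of the RefSeq starts (GRCm38.p6) were searched on both strands, in the 10 promoters given for 9 of the transporters, for the motif of HNF4 (CAAAGTCCA, up to 1 difference), a transcription factor of the proximal tubule, and for the androgen receptor motif (AGAACA and TGTTCT with 3 bases between them, up to 2 differences). No entry was given for Slc22a7. HNF4 matched Slc22a19 and Slc22a30 (7.05% of 32851 promoters), and the androgen receptor motif matched Slc22a19 (1.56%). The stretches that hold matches are shown because these transporters differ in the direction of the Y-linked split, with matches in capitals, 5′ to 3′ on the strand of the gene:
Slc22a19, chr19:7711387-7711509, minus strand, androgen receptor match then HNF4 match: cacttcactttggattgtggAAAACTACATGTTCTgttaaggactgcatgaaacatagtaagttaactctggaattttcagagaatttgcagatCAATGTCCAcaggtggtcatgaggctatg
Slc22a30, chr19:8405187-8405235, minus strand, HNF4 match: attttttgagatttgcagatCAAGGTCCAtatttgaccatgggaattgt
Both stretches lie outside annotated genes. The HNF4 matches began 105 and 110 bases before the start of Slc22a19 and Slc22a30, and the androgen receptor match 179 bases before the start of Slc22a19. A match describes these letters only, and no binding was measured here. Hnf4a was lower in FAN1KO kidneys under cisplatin (234, 243 and 342 TPM against 392, 394 and 375 TPM, log2 fold change -0.52 ± 0.135 SE, limma, adjusted p = 0.0201). It was picked here after its values were seen, and its part in the transporter levels was not tested.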

How the data were processed

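The authors deposited 1 table of TPM (transcript abundance scaled to length and to a library total of 1000000) per gene and kidney library, named by NCBI Gene number. Their notes name mouse build mm10 and limma, and the aligner and annotation are not given in the sources used here. The table held no columns of comparisons, and 0 value columns were unused. Of 27179 gene numbers 25275 matched RefSeq (GRCm38.p6).

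Values were tested as log2(TPM + 1) with limma 3.58.1 in R 4.3.3 (empirical Bayes with trend, 4 group means over 12 libraries) for the 14972 genes at TPM 1 or more in at least 3 libraries, with Benjamini-Hochberg adjustment over all of them and a threshold of 0.05. Between 2 groups, 3 against 3, exact two-sided permutation tests were added. The low TPM were whole multiples of the value of 1 read (99.99% of values within 0.03 reads), which gave the depth. The value of 1 read in 1 kb was 0.0200 to 0.0479 TPM. Counting error was not compared with the spread between mice. In simulated data for genotype under cisplatin the fit recovered 71 of 96 changes of 2-fold and 97 of 98 of 4-fold. It called 16 unchanged genes. That simulation gave all genes the same spread and no Y-linked split, so it does not cover transporters that vary widely within a group.

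Named were all 10 transporters and, from a list of 47 related genes, up to 3 called in each direction and comparison by size, with Slc2a9, Abcg2 and Slc13a3 for their role, and the 3 genes nearest in pattern to 2 transporters. The transporters and lists were chosen with earlier results of these data known. Alternatives were another pseudocount (0.1), no filter, median-ratio scaling, fewer libraries, no trend, a replicate block, a Y-linked covariate, leaving out 1 library, voom on the recovered reads and centring on proximal tubule markers. Promoters came from RefSeq and coding identities from GENCODE M21 transcripts, aligned with Biopython 1.88. Of the transporters, 6 overlap another gene (Slc22a6 and Slc22a8 with Gm36394, Slc22a7 with Gm36541, Slc22a19 with Gm15967 and Gm15968, Slco1a1 with Gm30843, Slco4c1 with Panct2), and strand use in counting is not given.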

Additional observations from a re-analysis of the deposited data

Results flagged for a closer look

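None of the 10 transporters passed the test of a difference in the cisplatin effect between the genotypes. Among the related genes 3 of the 45 tested did, where 1.02% and 5.22% of all genes were called lower and higher. They are listed here for that reason. All 3 fell with cisplatin in FAN1KO kidneys, and in wild-type kidneys none of them was called. Slc13a3, the dicarboxylate carrier, had an interaction of -1.59 on the log2 scale (limma, adjusted p = 0.0114), from -1.50 in FAN1KO and 0.09 in wild-type. Pdzk1, a scaffold that holds luminal transporters such as Slc22a12 at the membrane, had one of -0.86 (adjusted p = 0.0143), with 929 to 1016 TPM in wild-type cisplatin libraries and 534 to 652 TPM in FAN1KO ones. Slc22a5, the carnitine carrier, had one of -0.73 (adjusted p = 0.0487), and it lost this call in 11 of the 12 fits that left out 1 library, all but the one without FAN1KO cisplatin 3 (adjusted p 0.0546 to 0.126). With libraries centred on the proximal tubule markers, which put the median of all genes at 1.31, none of the 3 passed: Slc13a3 was at -0.57 (adjusted p = 0.0847), Pdzk1 at 0.16 (adjusted p = 0.617) and Slc22a5 at 0.30 (adjusted p = 0.356).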

How the results depend on the processing

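Among the alternatives, voom on the recovered reads and centring on proximal tubule markers were chosen after seeing the data. Of the 10 transporters, the number lower in FAN1KO under cisplatin was 4, and 2 without a filter, 7 with the Y-linked covariate, 8 in the libraries without Y-linked RNA, 1 with centring and 1 to 4 leaving out 1 library. The number lower with cisplatin in FAN1KO was 2, and 7, 7 and 0 with the covariate, those libraries and centring, and 2 to 4 leaving out 1. For the interaction it was 0, and 1 with median-ratio scaling, 6, 5 and 0 in the same order, and 0 to 1 leaving out 1. Over all genes, those lower between genotypes under cisplatin numbered 654 of 14972, and 634 of 22557 without a filter. They were 1288, 1162 and 64 with the covariate, those libraries and centring, and 370 to 694 leaving out 1. With cisplatin in FAN1KO they were 733, then 1222, 1256 and 39, and 482 to 786 leaving out 1. For the interaction they were 153, 184 with median-ratio scaling, then 646, 434 and 17, and 51 to 216 leaving out 1. With the replicate number as a block, the number of transporters lower between genotypes under cisplatin was 2 (Slc22a7 and Slc22a8), where 580 of 14972 genes were lower. The numbers mark different mice. Same-numbered libraries had a mean correlation of -0.243 to -0.144 against 0.0806 to 0.139 for the others. No same-numbered pair compared joined libraries that both held Y-linked RNA, so these correlations cannot tell whether the numbers pair the samples. The cause of the changes in these counts was not tested.

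Centring moved the median of all genes from 0.245 to 1.21 (genotype under cisplatin) and from 0.369 to 1.55 (cisplatin in FAN1KO), and every value it turned lay below that median. It turned Slc22a12 (0.12 for cisplatin in FAN1KO), and for genotype and cisplatin respectively Slc22a13 (0.56 and 1.09), Slco4c1 (0.91 and 0.90) and Slc17a1 (0.25 and 0.39). Also turned were Slc13a1 (0.94), Pdzk1 (0.23), Slc22a5 (0.35) and Abcg2 (0.55) between genotypes. Slco4c1 became 0.18 with the other pseudocount and 0.45 with voom, and Slco1a1 0.047 for cisplatin in the 8 libraries. Leaving out 1 library gave -1.06 to 0.014 for Slc22a13, -2.68 to 1.28 for Slco1a1 and -0.51 to 0.21 for Slco4c1 between genotypes, and -0.61 to 0.45, -2.49 to 1.33 and -0.46 to 0.037 for cisplatin. Slc13a1 ran from -0.149 to 0.064 between genotypes. Median-ratio scaling moved the median of all genes from 0.245 to -0.01 between genotypes under cisplatin and turned no transporter, and voom called 667 genes lower and 3031 higher there. Depth limits Slco4c1, at 14 to 170 reads, and Slco1a1 in libraries without Y-linked RNA, at 16 to 31 reads.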
